A study of Mus musculus with 21 samples.

Results

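Trh, Ngfr, Piezo2, Dlg2, Pcdh7, Wdr86, Aire and Nr1h5 are 8 mouse genes whose RNA level differed strongly between epiblasts of embryonic days 5.0, 5.5 and 6.0. They were listed by name because of those differences, selected on their counts in these same embryos, so every epiblast value below is a description and carries no test. The 8 genes fill 9 of the 33861 rows of the deposited count table, because the symbol Dlg2 occurs on 2 rows. Dlg2 is followed here through ENSMUSG00000052572. The rule that lists the genes does not use the comparisons between cultured groups, which are tested, although earlier results of these data were known when the list was made.

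The epiblast is the tissue of the early embryo from which the body is formed. Between implantation and gastrulation it leaves naive pluripotency, passes through a formative phase and becomes primed for germ layer formation. Epiblast stem cells (EpiSCs) are the culture counterpart of the late, primed epiblast, and formative stem cells are lines proposed to hold the phase in between.

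RNA was measured in 9 epiblasts, each collected from a single embryo, and in 12 cultured samples of 1000 cells. The embryos were E5.0 (numbers 1, 2 and 4), E5.5 (1, 2 and 3) and E6.0 (1, 2 and 3), and the oldest stage carries E6.0 in its titles and 6.5 in another label. FS cells, labelled formative stem cells, grew in A3XR medium. They came from 2 lines: line 1 was sampled at passages 10, 11 and 18, and line 2 was taken at 12, 13 and 16. AF and AFX cells, labelled EpiSCs and named E14, grew in media called AF and AFX and were each sampled at passages 14, 15 and 16. Strain, genotype and sex were not given for any group. Within culture, replicates are successive passages and not separate derivations, so p-values measure the spread between passages and, in FS, between lines. FS differs from AF and AFX in both cell line and medium, and these cannot be told apart.

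Counts per sample totalled 5827093 to 15916800. Levels are CPM, counts relative to the library total, scaled by TMM, a correction for library composition, and 3 counts corresponded to 0.171 to 0.589 CPM depending on the library. The epiblast list (Pou5f1, Sox2, Otx2, Fgf5, Dnmt3b, Utf1 and Pou3f1) summed to 3890 to 7147 CPM in the embryos and 1178 to 2870 CPM in cultured samples, with 7 of 7 genes detected in every group. The 13 visceral endoderm markers, genes of the tissue that encloses the epiblast, summed to 267 to 816 CPM at E5.0, 28.2 to 68.6 at E5.5 and 7.79 to 11.6 at E6.0. Afp, Ttr, Sox17 and Hnf4a of this list were each at most 12.2 CPM in any E5.0 embryo. Other genes of the list thus made up most of the E5.0 sums.

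Promoters are shown for Trh and Aire, which changed in opposite directions, and for Nr1h5, which was on in some embryos of a stage and off in others. Each sequence is the 250 bases before the RefSeq gene start in GRCm38.p6, written 5′ to 3′ on the minus strand, where all 3 genes lie. The TATA-box forms TATAAA and TATAAG, the GC box GGGCGG, the CCAAT box, the nuclear receptor element TGACCT and the octamer ATGCAAAT were searched on both strands, and capitals mark every match.
Trh, chr6:92244651-92244900: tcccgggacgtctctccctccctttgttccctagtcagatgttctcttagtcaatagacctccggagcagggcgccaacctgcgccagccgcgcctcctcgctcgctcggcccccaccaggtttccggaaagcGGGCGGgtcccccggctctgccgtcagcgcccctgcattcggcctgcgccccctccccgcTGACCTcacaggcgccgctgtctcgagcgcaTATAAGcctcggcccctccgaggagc
Aire, chr10:78043611-78043860: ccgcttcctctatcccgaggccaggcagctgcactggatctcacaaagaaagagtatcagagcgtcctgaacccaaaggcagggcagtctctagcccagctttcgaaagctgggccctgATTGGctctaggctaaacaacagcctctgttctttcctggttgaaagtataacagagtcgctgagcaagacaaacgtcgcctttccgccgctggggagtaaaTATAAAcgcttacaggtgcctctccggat
Nr1h5, chr3:102964134-102964383: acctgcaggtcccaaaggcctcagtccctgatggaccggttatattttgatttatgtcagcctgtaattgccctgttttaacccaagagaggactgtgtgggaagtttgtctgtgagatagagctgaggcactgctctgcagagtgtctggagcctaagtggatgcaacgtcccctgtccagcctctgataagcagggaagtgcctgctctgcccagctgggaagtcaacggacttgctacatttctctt
The Trh window held GGGCGG 117 bases before the start, TGACCT 57 bases before it and TATAAG 26 bases before it, and had 25 CpG dinucleotides at 68.8% GC. The Aire window held CCAAT on the reverse strand (printed as ATTGG) 131 bases before the start and TATAAA 29 bases before it, with 11 CpG at 53.2% GC. It lies inside the Dnmt3l gene but in none of its exons. None of the 6 motifs was found in the Nr1h5 window, which held 3 CpG at 51.6% GC. Among 32851 windows of the same length, GGGCGG occurred in 32.7%, TGACCT in 14.02%, TATAAG in 6.65%, TATAAA in 12.4%, CCAAT in 33.8% and ATGCAAAT in 1.60%, and the median CpG count was 6. A match is a string of letters and not evidence that a factor binds.

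**Figure D1:**
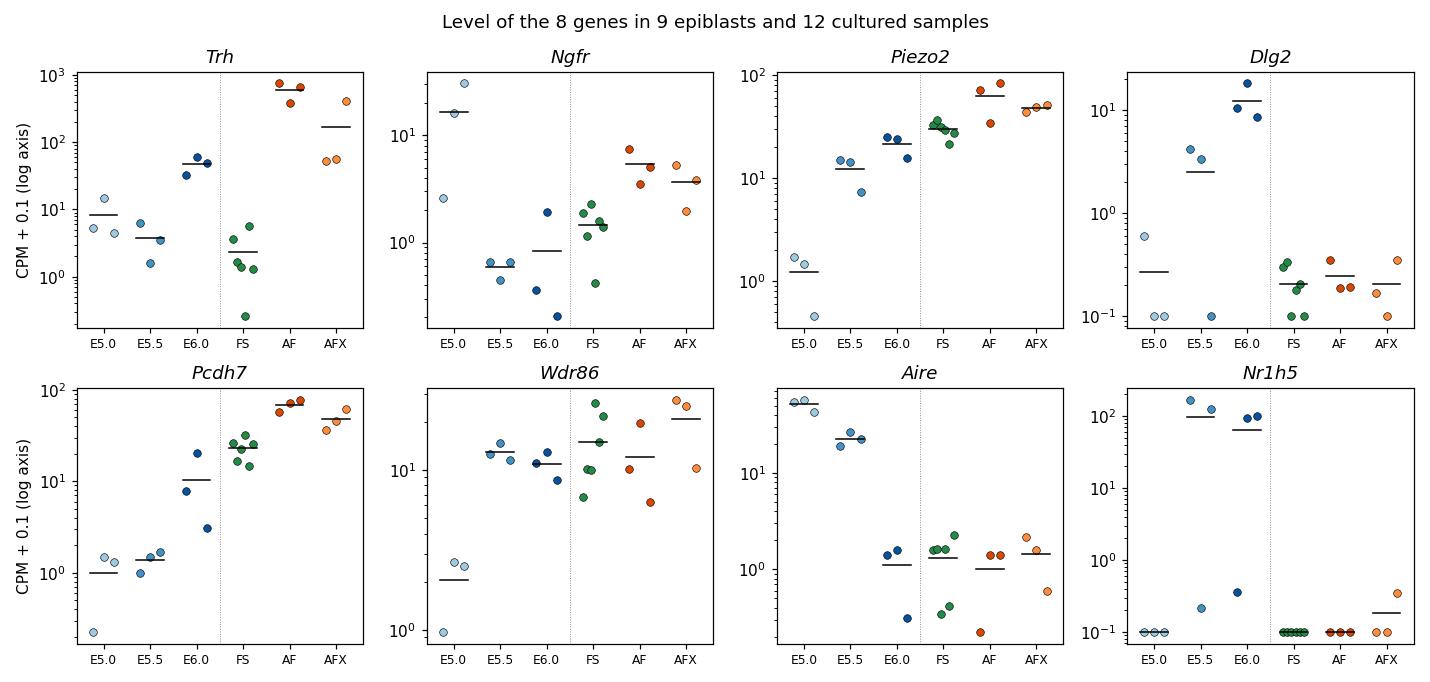
Level of each gene (CPM + 0.1, log axis) in single epiblasts (blue) and cultured samples (FS green, AF dark orange, AFX light orange), 1 point per sample with the group mean as a bar. Piezo2 and Pcdh7 in AF and AFX lie above all 9 embryos, Aire in culture lies with E6.0, and Nr1h5 is split within E5.5 and within E6.0.

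Trh encodes the precursor of thyrotropin-releasing hormone, a hypothalamic peptide that drives thyrotropin release. The gene (ENSMUSG00000005892, chr6:92242061-92244650, minus strand) measured 5.21, 14.7 and 4.32 CPM in E5.0 embryos 1, 2 and 4, then 6.10, 1.49 and 3.45 in E5.5 embryos, and 32.2, 60.2 and 48.2 in E6.0 embryos. All 3 E6.0 embryos were above all 6 younger ones, while E5.0 and E5.5 overlapped. The 8 primitive streak markers summed to 133, 105 and 72.4 CPM at E5.0, 41.8, 23.0 and 50.3 at E5.5 and 114, 243 and 80.2 at E6.0, and E6.0 embryo 2 was highest for both Trh and this list. The part of the list in the Trh level of the embryos was not tested. The log2 difference of E6.0 minus E5.5 was 3.66 ± 0.58 (SE, n = 3 per stage), and that of E5.5 minus E5.0 was -1.10 ± 0.57. The latter was -0.38 without E5.0 embryo 2. In that embryo the 8 extraembryonic ectoderm markers summed to 24.5 CPM, against 5.21 and 3.24 in E5.0 embryos 1 and 4. The part of those markers in the Trh level was not tested.

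In culture the FS samples held little Trh, with a lowest, median and highest level of 0.161, 1.42 and 5.48 CPM. AF passages 14, 15 and 16 held 746, 383 and 670 CPM, and AFX passages 53.2, 56.2 and 403 CPM. Every AF sample was above every embryo, and AFX passage 16 stood near AF while the other AFX passages stood in or near the E6.0 range. FS was therefore nearest E5.5, and AF and AFX nearest E6.0, where nearest means the smallest difference in mean log2 CPM. The FS mean was still below that of every stage, and 3 of 6 FS samples were below every embryo. AF exceeded E6.0 by 3.67 ± 0.81 on the log2 scale in the fit of all 21 samples, and FS was lower than E6.0 (-4.50 ± 0.74).

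In AFX passage 16 the 8 primitive streak markers summed to 208 CPM, against 72.8 and 90.0 in the other AFX passages. The sums in AF were 523, 359 and 842 CPM at passages 14, 15 and 16, of which Cer1 alone held 210, 209 and 258. The visceral endoderm list was likewise highest at passage 16 in both media, at 15.7 against 4.02 and 3.75 in AFX and 52.2, 63.1 and 79.4 in AF. Sox17 alone held 26.6, 23.6 and 43.0 CPM of this list in AF, where Afp, Ttr and Hnf4a were each at most 0.615 CPM. Of that list 3 genes in AFX and 2 in AF were at 0 in every sample, and no gene of the streak list was at 0 throughout a cultured group. The part of either list in the Trh level was not tested.

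Ngfr encodes p75, a receptor for neurotrophins of the tumour necrosis factor receptor family. The gene (ENSMUSG00000000120, chr11:95568818-95587735, minus strand) measured 2.48, 16.1 and 30.5 CPM in E5.0 embryos 1, 2 and 4, against 0.565, 0.344 and 0.560 at E5.5 and 0.263, 1.82 and 0.106 at E6.0. E5.0 did not overlap with the later stages, but its own embryos spread widely, and embryo 2 alone was above 1 CPM at E6.0. The log2 difference of E5.5 minus E5.0 was -5.03 ± 1.05, and -4.19 without E5.0 embryo 4, whereas E6.0 minus E5.5 was 0.64 ± 1.12 and turned to -1.39 without E6.0 embryo 2.

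The visceral endoderm list summed to 653, 816 and 267 CPM in E5.0 embryos 1, 2 and 4, and the embryo with the most Ngfr had the lowest of these sums. From E5.0 to E5.5 the list and Ngfr were both lower, and the part of the list in the Ngfr level was not tested. In whole epiblasts, fewer cells of a type and less RNA per cell cannot be told apart. In culture Ngfr was 0.321, 1.39 and 2.20 CPM (lowest, median, highest) in FS, 7.40, 3.43 and 5.01 in AF passages 14, 15 and 16, and 5.17, 1.87 and 3.74 in AFX. All 3 AF samples were above all 6 FS samples, and AFX overlapped both. AF and AFX were nearest E5.0 and above every E5.5 and E6.0 embryo, although only 2 of 3 AFX samples were nearest E5.0 singly and the AFX mean was nearest E5.5 without E5.0 embryo 1, and FS lay at almost equal distance from E5.5 and E6.0.

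Piezo2 encodes a mechanically gated cation channel of touch sensation. The gene (ENSMUSG00000041482, chromosome 18) measured 1.61, 1.37 and 0.360 CPM at E5.0, 15.02, 14.2 and 7.18 at E5.5 and 24.7, 23.7 and 15.5 at E6.0. No stage overlapped with the next. The log2 rise was 3.45 ± 0.48 from E5.0 to E5.5 and 0.81 ± 0.38 from E5.5 to E6.0.

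Cultured cells kept Piezo2 at or above the E6.0 level. FS ranged from 21.3 to 36.4 CPM with a median of 30.2, AF measured 71.8, 34.0 and 82.7, and AFX 43.9, 48.7 and 51.1. Above every embryo were 5 of 6 FS, 3 of 3 AF and 3 of 3 AFX samples. The log2 difference from E6.0 was 0.48 ± 0.27 in FS, 1.56 ± 0.31 in AF and 1.17 ± 0.31 in AFX.

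Pcdh7 encodes a non-clustered protocadherin, a cell adhesion protein. The gene (ENSMUSG00000029108, chr5:57717967-58133230, plus strand) was low at E5.0 with 0.124, 1.37 and 1.20 CPM and at E5.5 with 0.904, 1.38 and 1.59, and reached 7.75, 20.1 and 2.98 CPM in the E6.0 embryos. The earlier stages overlapped, and all 3 E6.0 embryos were above them. The log2 difference of E6.0 minus E5.5 was 2.97 ± 0.73, and 2.04 without E6.0 embryo 2. The E6.0 embryos had the same order in Pcdh7 and in the primitive streak sum, whose part in the Pcdh7 level was not tested.

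Pcdh7 was higher still in culture. The FS samples ran from 14.6 to 32.2 CPM with a median of 23.8, AF measured 57.6, 70.8 and 77.6, and AFX 35.8, 44.99 and 60.9. Above the highest embryo were 4 of 6 FS samples and every AF and AFX sample, and FS overlapped with neither AF nor AFX. Relative to E6.0 the log2 difference was 1.13 ± 0.42 in FS, 2.72 ± 0.48 in AF and 2.18 ± 0.47 in AFX.

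Dlg2 encodes PSD-93, a membrane-associated scaffold of synapses. The gene (ENSMUSG00000052572, chr7:90476672-92449247, plus strand) measured 0.497, 0 and 0 CPM at E5.0, 4.07, 3.21 and 0 at E5.5 and 10.4, 18.003 and 8.41 at E6.0. The E6.0 embryos were above all others, and E5.5 embryo 3 had no count, like E5.0 embryos 2 and 4. E6.0 exceeded E5.5 by 2.34 ± 1.00 on the log2 scale, by 1.76 without E5.5 embryo 3 and by 2.97 without E5.5 embryo 1.

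No cultured group kept the E6.0 level of Dlg2. Cultured samples had at most 3 counts, or 0.249 CPM, in any library. The highest FS floor of 3 counts was 0.354 CPM, against 8.41 CPM in the lowest E6.0 embryo. The fitted log2 difference of FS minus E6.0 was -6.92 ± 0.88, but its size rests on FS counts under the floor and is uncertain. All 3 groups were nearest E5.0, and at these counts differences between them were not detectable. Dlg2 thus parted from Piezo2 and Pcdh7, which also had their highest epiblast level at E6.0 but stood at that level or above it in culture.

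Wdr86 encodes a WD-repeat protein. The gene (ENSMUSG00000055235, chr5:24711738-24730727, minus strand) measured 0.869, 2.55 and 2.40 CPM at E5.0, 12.4, 14.7 and 11.4 at E5.5, and 11.03, 12.8 and 8.52 at E6.0. The step lay between E5.0 and E5.5, at 2.73 ± 0.40 on the log2 scale, and E5.5 and E6.0 overlapped. Line 1 of FS held 6.65, 10.04 and 9.93 CPM at passages 10, 11 and 18, and line 2 held 26.1, 14.9 and 21.7 at passages 12, 13 and 16. AF held 9.99, 19.7 and 6.22 and AFX 27.4, 24.9 and 10.1. All 12 cultured samples were above all E5.0 embryos. The range of each cultured group took in the E5.5 embryos, but no single cultured sample lay within the E5.5 range. FS line 1 was below every E5.5 embryo, and line 2 was above every embryo. The E6.0 range held 2 of 6 FS, 1 of 3 AF and 1 of 3 AFX samples.

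Aire encodes a transcriptional regulator known for expressing tissue-restricted antigens in the thymus. The gene (ENSMUSG00000000731, chr10:78030022-78043610, minus strand) measured 54.4, 57.3 and 43.0 CPM at E5.0, 18.8, 26.6 and 22.2 at E5.5, and 1.31, 1.47 and 0.213 at E6.0. No stage overlapped with the next. The log2 difference was -1.21 ± 0.30 for E5.5 minus E5.0 and -4.47 ± 0.39 for E6.0 minus E5.5.

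Every cultured group held Aire at the E6.0 level. FS samples ran from 0.244 to 2.16 CPM with a median of 1.51, AF measured 0.123, 1.32 and 1.30, and AFX 2.08, 1.4998 and 0.499. All 12 samples were below all E5.5 embryos, and the range of each group overlapped with that of E6.0, which held 2 of 6 FS, 2 of 3 AF and 1 of 3 AFX samples. The log2 difference from E6.0 was 0.30 ± 0.62 in FS, -0.07 ± 0.74 in AF and 0.45 ± 0.70 in AFX.

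Aire shares 1664 bases with Dnmt3l, a cofactor of de novo DNA methylation on the opposite strand (chr10:78041947-78063622). Dnmt3l measured 288, 330 and 429 CPM at E5.0, 110, 232 and 209 at E5.5 and 9.85, 16.01 and 26.9 at E6.0. It was thus lower at each later stage, as Aire was. The strand setting of the counting is not stated, so reads in the shared stretch cannot be told apart. Icosl, the next gene on, measured 31.5, 47.3 and 38.4, then 15.4, 19.7 and 15.02, then 5.25, 3.29 and 7.24 CPM, and was lower at each later stage too. Pfkl, on the other side of Aire, was not, at 452, 353 and 321 CPM at E5.0, 428, 402 and 508 at E5.5 and 409, 393 and 355 at E6.0. The visceral endoderm list was also lower at each later stage, and its part in the Aire values was not tested.

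Nr1h5 encodes FXR beta, a nuclear receptor that binds lanosterol in the mouse. The gene (ENSMUSG00000048938, chr3:102939658-102964133, minus strand) had 0 counts in all 3 E5.0 embryos. E5.5 embryos 1, 2 and 3 held 167.5, 0.115 and 123 CPM, from 1483, 1 and 1319 counts, and E6.0 embryos held 0.263, 93.2 and 99.7 CPM, from 2, 1077 and 936 counts. Nr1h5 thus lay between 93.2 and 167.5 CPM in 4 embryos and at 2 counts or fewer in 1 embryo of each later stage, so stage alone did not separate high from low embryos. The lower of the high E5.5 embryos was at least 209-fold above the highest floor of 3 counts at E5.0.

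No cultured group held Nr1h5. FS and AF had 0 counts in every sample, and AFX had 3 counts, or 0.249 CPM, in 1 sample only. The lower high E6.0 embryo was at least 263-fold higher than the FS floor and at least 252-fold higher than the AF floor. All 3 groups were nearest E5.0.

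The split of Nr1h5 within stages had near neighbours, which were chosen after their values were seen. Gm22826, a small nuclear RNA gene inside Nr1h5 on the same strand, measured 5.99, 0 and 3.17 CPM in E5.5 embryos and 0, 1.47 and 1.60 in E6.0 embryos, and was at 0 at E5.0 and in culture. Its reads cannot be told apart from those of Nr1h5 transcripts. Sycp1, the adjacent meiotic gene on the same strand (chr3:102818499-102936100), measured 0.869, 0.785 and 0 CPM at E5.0, 8.92, 5.27 and 22.4 at E5.5, and 1.18, 8.83 and 10.1 at E6.0. Sycp1 was lowest of its stage in the same embryos as Nr1h5. Sike1, the next gene on the other side, measured 15.1, 8.02 and 19.96 CPM at E5.5 and 10.1, 14.3 and 18.4 at E6.0. It too was lowest in these embryos. The factors for Sycp1 and Sike1 were far smaller than that for Nr1h5. Tspan2, beyond Sycp1, measured 5.87, 3.67 and 1.77 CPM at E5.5, where embryo 3 and not embryo 2 was lowest, and 1.71, 2.42 and 2.24 at E6.0, where embryo 1 was lowest. The Y-linked gene Ddx3y measured 63.9, 55.9 and 0 CPM in E5.5 embryos 1, 2 and 3 and 76.9, 0 and 0.639 CPM in E6.0 embryos. Both later embryos low in Nr1h5 held Ddx3y, as did 1 of the 4 high embryos, and the part of sex in the split was not tested.

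**Figure D2:**
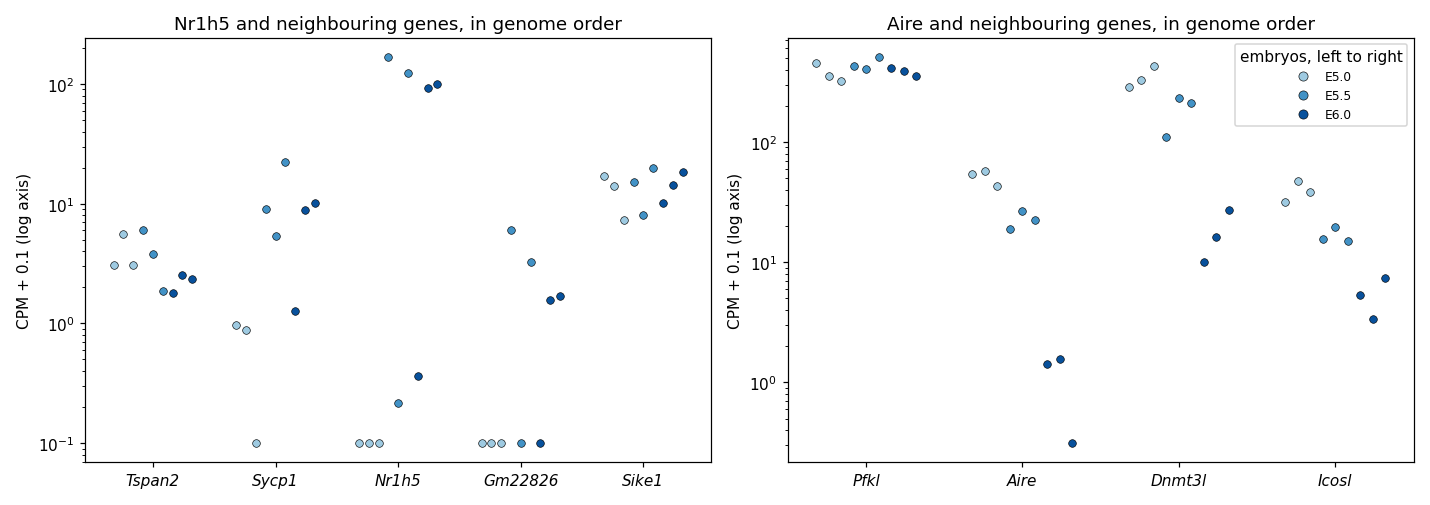
Level (CPM + 0.1, log axis) of the genes around Nr1h5 (left) and Aire (right) in the 9 epiblasts, 1 point per embryo, ordered by stage and embryo number. Nr1h5, Gm22826 and, by smaller factors, Sycp1 and Sike1 are lowest of their stage in E5.5 embryo 2 and E6.0 embryo 1. Aire, Dnmt3l and Icosl are lower at each later stage.

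Across all 8 genes the comparison of E6.0 with E5.0 left no overlap for 8 of 8, beside 38.8% of the 14228 genes tested. Nr1h5 is among them only through 2 counts in E6.0 embryo 1, which is under the floor of 3 counts. From E5.0 to E5.5 the embryos of 5 genes did not overlap, beside 24.1%, with Nr1h5 counted through 1 count in E5.5 embryo 2, and from E5.5 to E6.0 those of 5, beside 30.7%. These genes were listed for such differences, so the shares are given only as background.

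The cultured groups did not keep one common stage. By mean log2 CPM, FS was nearest E5.0 for 2 genes (Dlg2 and Nr1h5), E5.5 for 3 (Trh, Ngfr and Wdr86) and E6.0 for 3 (Piezo2, Pcdh7 and Aire). AF was nearest E5.0 for Ngfr, Dlg2 and Nr1h5 and E6.0 for the other 5. AFX was nearest E5.0 for the same 3, E5.5 for Wdr86 and E6.0 for Trh, Piezo2, Pcdh7 and Aire. E6.0 was the nearest stage in 12 of the 24 combinations of gene and group. For Nr1h5 the nearest stage rests on means of embryos that were split, and E5.5 embryo 2 and E6.0 embryo 1 were at the cultured level too. For Wdr86 the FS mean averages line 1, below every E5.5 embryo, and line 2, above them. Of these FS samples 3 were nearest E5.5 and 3 nearest E6.0. A nearest stage is not a match. Trh in AF and Pcdh7 in every cultured group stood above the E6.0 mean, and Trh in FS stood below the mean of every stage.

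**Figure D3:**
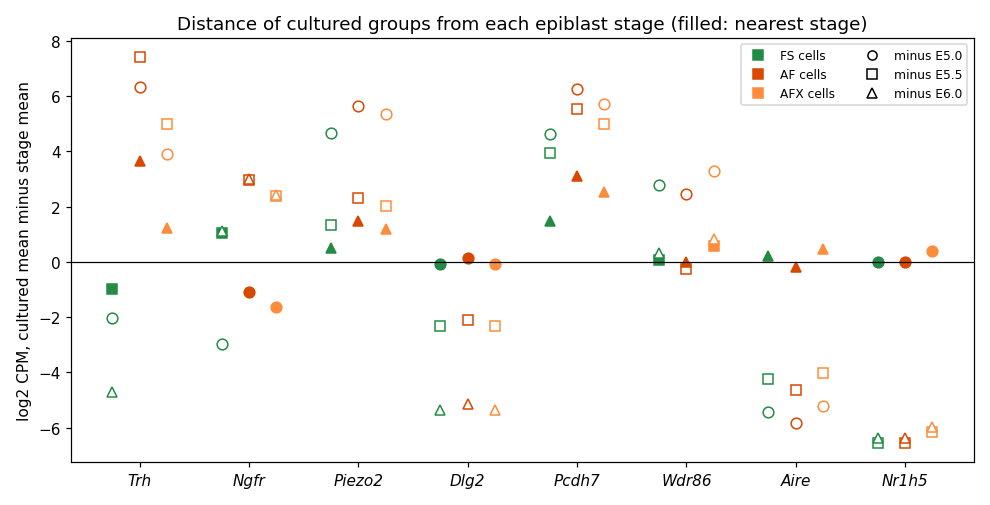
Mean log2 CPM of each cultured group minus that of each epiblast stage (vertical axis, log2 units), by gene. Filled symbols mark the nearest stage of each group, and Dlg2 and Nr1h5 sit at the E5.0 level in all 3 groups.

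Of the 8 genes, 6 passed the filter on low counts in cultured cells, and Dlg2 and Nr1h5 did not. In FS against AF, Trh, Ngfr, Piezo2 and Pcdh7 were lower in FS, so 4 of 6 passed edgeR's quasi-likelihood test with Benjamini-Hochberg adjustment (threshold 0.05), beside 10.6% of 16052 genes lower in FS and 19.5% changed in either direction. The log2 difference of FS minus AF was -8.18 ± 0.89 for Trh (adjusted p = 0.000221), and Pcdh7 differed by -1.60 ± 0.22 (adjusted p = 0.000174). Ngfr differed by -1.95 ± 0.44 (adjusted p = 0.00601) and Piezo2 by -1.09 ± 0.22 (adjusted p = 0.00302). For Trh, Ngfr and Pcdh7 the samples did not overlap, beside 21.2% of genes, and for Piezo2 they did. Wdr86 differed by 0.31 ± 0.48 (adjusted p = 0.715) and Aire by 0.37 ± 0.72 (adjusted p = 0.775). The median log2 difference was -1.35 over the 6 genes and 0.02 over all genes.

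Marker lists of other cell types differed between the same groups. The 7 feeder fibroblast markers summed to 15.2 to 44.6 CPM in FS, 216 to 258 in AF and 29.1 to 52.1 in AFX, and 5 of 6 tested were lower in FS than AF. No feeder marker was at 0 throughout AF or AFX, and 1 was in FS. The streak list summed to 32.1 to 114 CPM in FS, with 6 of 7 tested lower than in AF, and the visceral endoderm list to 2.33 to 4.25 CPM, with 3 of 4 lower. All 7 naive pluripotency genes tested were also lower, at 24.5 to 41.2 CPM summed in FS and 98.9 to 121 in AF. The neural list summed to 284 to 394 CPM in FS, 406 to 462 in AF and 386 to 429 in AFX, and 1 of 5 tested was lower in FS than AF, as was 1 of 2 extraembryonic ectoderm markers. In FS against AFX, 2 of 6 feeder, 1 of 4 visceral endoderm, 1 of 5 neural and 1 of 7 naive genes were lower in FS. The streak and extraembryonic ectoderm lists had 0 calls there by edgeR, with 4 of 7 and 1 of 2 genes at an unadjusted p under 0.05 and 0 and 1 by DESeq2. Between AFX and AF, 5 of 6 feeder markers were lower and 1 was higher in AFX. Lower in AFX were also 3 of 4 visceral endoderm, 3 of 7 naive, 1 of 7 streak and 1 of 2 extraembryonic ectoderm genes, and 0 of 5 neural genes passed edgeR, with 3 at an unadjusted p under 0.05 and 2 by DESeq2. The part of these lists in the differences of Trh, Ngfr, Piezo2 and Pcdh7 was not tested, in any of the 3 comparisons.

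Against AFX, FS was lower in 2 of 6 genes, beside 4.92% of genes lower and 8.7% changed in either direction. Trh differed by -6.37 ± 0.85 (adjusted p = 0.00147) and Pcdh7 by -1.06 ± 0.22 (adjusted p = 0.0074), both by edgeR. Without AFX passage 16 the Trh difference was -4.73, and Pcdh7 at -0.83 no longer passed (adjusted p = 0.0613). Ngfr, at -1.42 (adjusted p = 0.0624), and Piezo2, at -0.70 (adjusted p = 0.0681), missed the threshold, and both passed with DESeq2 (adjusted p = 0.0295 and 0.0303). The samples of Trh, Piezo2 and Pcdh7 did not overlap, beside 15.1% of genes. Wdr86 and Aire differed by -0.48 and -0.16 (adjusted p = 0.596 and 0.926). The median was -0.88 over the 6 genes and 0.00 over all genes. Both comparisons share the FS samples.

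Between AFX and AF, 0 of 6 genes passed edgeR's test, 0 had an unadjusted p under 0.05 and 0 passed with DESeq2, beside 8.73% of all genes called. The Trh difference was -1.81 ± 0.86 (adjusted p = 0.259), and without AFX passage 16 it was -3.46 (adjusted p = 0.0236). For Piezo2 it was -0.39 (adjusted p = 0.426), and without AF passage 15 it was -0.70 (adjusted p = 0.0308). Pcdh7 differed by -0.54, Ngfr by -0.53, Wdr86 by 0.79 and Aire by 0.53, with adjusted p of 0.236, 0.623, 0.466 and 0.786. No gene of the 6 separated the samples of the 2 groups, beside 26.7% of all genes.

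Between FS line 2 and line 1, 0 of 6 genes passed edgeR's test, beside 3.85% of all genes, with 1 at an unadjusted p under 0.05 and 1 by DESeq2. That gene was Wdr86, higher in line 2 by 1.22 ± 0.43 (adjusted p = 0.154, and 0.0446 with DESeq2). The lines did not overlap for Wdr86 or for Piezo2 (-0.38, adjusted p = 0.48), beside 27.3% of genes. The lines also differ in Y-linked Ddx3y, at 0.0814 to 0.354 CPM in line 1 and 76.3 to 95.9 CPM in line 2, and line and sex cannot be told apart.

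**Figure D4:**
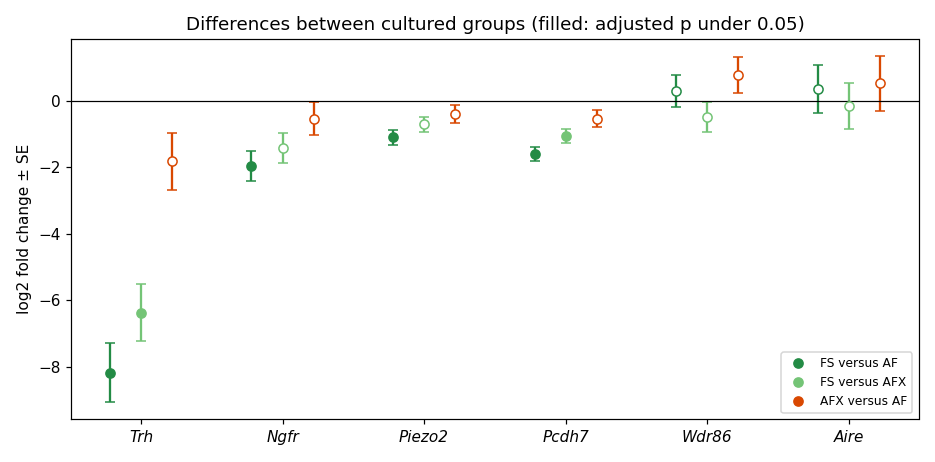
Log2 fold change with SE between cultured groups for the 6 genes that passed the filter (3 comparisons per gene). Filled points have an adjusted p under 0.05 and are Trh, Ngfr, Piezo2 and Pcdh7 in FS versus AF and Trh and Pcdh7 in FS versus AFX.

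Genes that work with these 8, or are related to them, were taken from lists. Of the 10 Trh partners, processing enzymes and receptors, 4 were tested in FS against AF, and 1 was higher and 2 lower in FS. Pam, which amidates peptide hormones, was lower in FS at 16.3 ± 3.85 CPM (SD, n = 6) against 39.7 ± 9.80 in AF (SD, n = 3), with a log2 difference of -1.30 ± 0.20 and an edgeR adjusted p of 0.00039. It was also lower than in AFX, by -0.94. The 2 remaining genes that passed in FS against AF, the prohormone convertases Pcsk1 and Pcsk2, were at mean levels under 5 CPM.

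Of the Ngfr partners 9 were tested, and 2 were higher and 1 lower in FS than AF. Ntrk3, a neurotrophin receptor, differed by 2.16 and Sort1, a coreceptor of p75, by 0.78, while Maged1, an adaptor of p75, differed by -0.48. Against AFX no Ngfr partner passed edgeR's test, with 2 at an unadjusted p under 0.05 and 1 by DESeq2.

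Of the Piezo2 relatives 6 were tested, and 1 was higher and 2 lower in FS than AF. Asic1, an acid-sensing channel, differed by 1.49, Tmem63a, a mechanosensitive channel, by -3.06, and Piezo1, the closest relative, by -0.33. Against AFX 0 of 6 passed edgeR's test, with 1 at an unadjusted p under 0.05 and 1 by DESeq2.

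Of the Dlg2 relatives 14 were tested, and 3 were higher and 1 lower in FS than AF. The higher genes were the scaffold genes Shank2 (1.48) and Dlgap3 (1.55) and the adhesion gene Nlgn2 (1.20). Against AFX Shank3 alone passed edgeR's test, at -1.27, with 3 genes at an unadjusted p under 0.05 and 2 called by DESeq2.

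Of the Pcdh7 relatives 8 were tested, and 1 was higher and 3 lower in FS than AF. The protocadherin genes Pcdh8 (-2.23) and Pcdh18 (-1.36) were lower, like Pcdh7, and Pcdh1 (0.55) was higher. Against AFX 1 of 8 was lower.

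Of the Aire relatives 9 were tested, and 3 were higher and 0 lower in FS than AF. They were Sirt1 (0.71), Prkdc (0.67) and Top2a (0.36), whose products are known to act with Aire. Top2a was also higher against AFX, at 0.43. Of the Nr1h5 relatives, receptors and sterol genes, 0 of 8 passed in FS against AF by edgeR or DESeq2, and 0 had an unadjusted p under 0.05. Across these 7 lists of partners and relatives the genes tested had median log2 differences of -0.53 to 0.33 in FS against AF, beside 0.02 for all genes.

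Genes with the most similar level over all 21 samples were ranked by Pearson's r of log2 CPM, which groups and libraries share, so r is a description. Piezo2 was closest to Mthfd2l, Cdk14 and Lta4h, with r of 0.95 for each. Pcdh7 was closest to Cd44 (0.95), Nhsl1 (0.94) and Galnt7 (0.94), and Aire to Nlrp9b (0.94), Ooep (0.93) and AU018091 (0.93), of which Nlrp9b belongs to a multigene family and is uncertain. Trh was closest to the pseudogene Gm8730 (0.89, uncertain), Slit2 (0.88) and the pseudogene RP23-74O12.8 (0.85, uncertain). Ngfr was closest to Commd7 (0.84), Capn7 (0.79) and Tgfb1 (0.79), Wdr86 to Pde9a (0.87), Aig1 (0.86) and Psat1 (0.85), and Dlg2 to Cacna1d (0.87), the pseudogene Rpsa-ps10 (0.85, uncertain) and Plxnb1 (0.85). Nr1h5 was closest to its neighbour Sycp1 (0.87), then Ski (0.83) and Tmem238 (0.80).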

How the data were processed

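Total RNA was isolated with a PicoPure kit, per the labels. The authors deposited raw counts per gene for 21 samples. Per the submitters' processing notes, reads were handled with Trim Galore, TopHat2 2.1.0 and featureCounts 1.5.0 on mm10. The strand setting and annotation release are not given in the sources used here.

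Tests on the counts used edgeR 4.0.16 in R 4.3.3 (filterByExpr, TMM, robust quasi-likelihood F-tests, two-sided, Benjamini-Hochberg over all genes tested, threshold 0.05). Cultured comparisons used the 12 cultured samples, epiblast changes the 9 epiblasts and stage distances all 21, the latter 2 without p. Each SE is the absolute log2 fold change divided by the square root of F. Log2 CPM used a prior count of 2. The floor is 3 counts per library and covers counting error only. Gene positions are from GENCODE M21 (GRCm38) and promoters from RefSeq. Promoters were looked up by symbol for 7 of the 8 genes, and all 7 matched. The fits were tested on simulated data.

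The 8 genes and all lists were chosen with earlier results of these data known. Besides the 8 genes, the text names the 3 genes most correlated with each (mean of at least 5 CPM in a group) and, per list and comparison, up to 3 genes past the threshold at that level. Genes beside Aire and Nr1h5 were chosen after their values were seen, and not every neighbour is reported here. Alternatives were DESeq2 1.42.0, DESeq2 size factors, no filter, FS lines separate or alone, each sample left out, a replicate block, unscaled CPM and a prior count of 0.5.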

Additional observations from a re-analysis of the deposited data

How the results depend on the processing

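Across the alternatives, 271 of 300 values of the 6 genes in cultured comparisons kept their direction and side of the threshold, as did 258 of 264 nearest stages. Of 247 epiblast changes, 241 kept their direction and moved by less than 1 SD between embryos. Leaving out 1 sample gave 2263 to 3386 genes called in FS versus AF (3126 in all samples), 820 to 1485 in FS versus AFX (1397), 732 to 1129 in AFX versus AF (1401) and 316 to 478 between FS lines (618), with fewer samples in each fit. Between FS lines, DESeq2 called 1099 genes and edgeR with no filter 1298, and Wdr86 then passed (adjusted p = 0.0446 and 1.1e-05).

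AF and AFX share passage numbers, but same-numbered samples did not deviate together (r = -0.12, -0.09 and 0.20). With the passage number as a replicate block, AFX versus AF called 907 genes, and Trh passed at -2.46 (adjusted p = 0.0363). AF and AFX fitted alone with no block, an alternative added after seeing the data, called 1175. Embryo numbers of E5.5 and E6.0 gave r of 0.10, -0.05 and 0.08.

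Ngfr passed in FS versus AFX under 5 of 15 alternatives and Piezo2 under 4 of 15. Values that turned direction, none past the threshold where a test was run, were as follows, and the cause was not tested. Between FS lines Trh was 0.10 with DESeq2 and 0.50, 0.49 and 0.29 without line 1 passage 10, line 2 passage 12 and line 2 passage 16. Pcdh7 there was -0.0027 without line 1 passage 11 and -0.13 without line 2 passage 12, and Aire -0.15 without line 1 passage 18 and -0.19 without line 2 passage 16; leaving out 1 sample gave ranges of -1.48 to 0.50 for Trh, -0.13 to 0.38 for Pcdh7 and -0.19 to 0.77 for Aire. In FS versus AFX Aire was 0.05, 0.02 and 0.33 without line 1 passage 18, line 2 passage 13 and AFX passage 14, with a range of -0.57 to 0.33, and in FS versus AF -0.11 without AF passage 14, up to 0.70. Wdr86 in FS versus AF was -0.0205 without AF passage 16 (range to 0.89) and -0.45 with FS line 1 alone. For E6.0 minus E5.5, Nr1h5 was 0.0722 without E5.5 embryo 1 (lowest -1.17) and Ngfr -1.39 without E6.0 embryo 2 (highest 1.14).

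Without E5.0 embryo 1, the only E5.0 embryo with counts of Dlg2, no fold of Dlg2 against E5.0 is given. For E5.5 minus E5.0, Trh ran from -1.65 to -0.38 with 1 embryo left out. For E6.0 minus E5.0, Trh was 3.29 without E5.0 embryo 2 and Ngfr -6.41 without E6.0 embryo 2. FS was nearest E6.0 for Ngfr without E5.5 embryo 1 or 3 or E6.0 embryo 1 or 3. AFX was nearest E5.5 for Ngfr without E5.0 embryo 1, and AF nearest E5.5 for Wdr86 on unscaled CPM. Depth limits the comparison of Dlg2 and Nr1h5 between cultured groups, where no library exceeded 3 counts. Cultured libraries totalled 7703118 to 15916800 counts and E6.0 libraries 7847469 to 13006656.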

Other observations

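A search of all 33861 genes for the pattern of Nr1h5 asked that each of the 4 embryos high in Nr1h5 exceed 5 times the highest of the other 5 embryos plus 1 CPM. It found 2 genes, Nr1h5 and Gm22826, which lies inside it. The search was set after the values of Nr1h5 were seen. The second row with the symbol Dlg2, ENSMUSG00000108872, held at most 7 counts in any sample.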
